A study of Mus musculus with 11 samples.

Results

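A set of 10 genes of the endothelial TGF-beta and BMP pathways were followed here through bone marrow endothelial cells (ECs) of healthy and tumour-burdened mice. They are the secreted modulator *Lrg1*, the receptors *Eng*, *Acvrl1*, *Tgfbr2* and *Bmpr2*, the signal transducer *Smad1*, the inhibitory *Smad6* and *Smad7*, and the target genes *Id1* and *Id3*. All 10 were found by Entrez gene identifier among the 27179 rows of the gene count table, and all 10 passed the filter on low counts that left 11949 genes for testing. The members were chosen by name, with no threshold on a measured value, but the levels and calls of genes in these same libraries were known when the list was drawn up, so the levels given here are a description and the calls are not independent evidence. CD31hi EMCNhi ECs, the surface phenotype of type H capillaries, were sorted from BALB/c bone marrow. The tumour-burdened mice carried 4T1.2, a single mammary cancer line of BALB/c origin that spreads to bone and was labelled with red fluorescent protein. Their bones were microdissected by that fluorescence into tumour-infiltrated marrow (met, 3 libraries) and adjacent tumour-free marrow (non-met, 6 libraries), and age-matched healthy BALB/c mice gave the controls (2 libraries). Each library came from a pool of 1 to 4 mice. The labels give 2 control pools and 4 burdened pools. The 6 non-met libraries thus stand for 4 pools, and each met library shares its mice with at least 1 non-met library. The paper's methods name 3 control pools and the removal of 1 sample for poor mapping, after which 2 controls were left. The labels name no further treatment, and the non-met marrow came from the same burdened animals as the metastases.

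TGF-beta and BMP ligands bind pairs of type I and type II receptor kinases, which phosphorylate receptor SMADs. These enter the nucleus with SMAD4 and change transcription. In ECs the type I receptor ALK1 (encoded by *Acvrl1*) and the co-receptor endoglin (*Eng*) direct signals towards SMAD1 and SMAD5, which induce the *Id* genes. SMAD6 and SMAD7 are induced by the pathway and restrain it. LRG1 is a secreted leucine-rich glycoprotein that binds endoglin and is known for promoting blood vessel growth through this SMAD branch. It is also made by the liver in the acute phase and stored in neutrophil granules.

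The libraries held from 733342 to 19539761 counts. Non-met 4 was the shallowest and control 1 the deepest. They were prepared by a low-input protocol from few sorted cells, and 80% of the genes tested had 3 reads or fewer in at least 1 library. All 12 endothelial marker genes were above 3 reads in every group. Their summed level was 14100 to 17200 CPM (counts scaled to the library size, here by TMM) in met, 9920 to 17300 in non-met and 8740 to 12300 in the controls. *Pecam1*, which encodes the sort marker CD31, was at 2300 to 3160 CPM in met, 1130 to 2430 in non-met and 972 to 1250 in controls. *Emcn* was at 674 to 1330 CPM in met, 351 to 1360 in non-met and 510 to 695 in controls. The 14 stromal marker genes summed to 4290 and 11500 CPM in the controls and to 585 to 4150 CPM in the 9 burdened libraries. *Bglap* was the stromal gene with no read in any library. The 9 epithelial genes, of which *Krt5* had no read, summed to 11.7 to 75.2 CPM in met, 1.44 to 144 in non-met and 1.03 to 19.5 in the controls. Mitochondrial genes took 4.33% to 9.56% of the counts in met, 6.72% to 17.8% in non-met and 5.4% and 6.2% in the controls. The part of these differences in the members' levels was not tested. In bulk RNA of this kind, fewer cells of a type and less RNA per cell cannot be told apart.

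Per kilobase of transcript, the members spanned a wide range of levels. *Lrg1* had the highest mean level, at 1530 ± 895 RPKM (reads divided by library size and transcript length; SD, n = 11 libraries), and ranked 19 of 11949 tested genes. *Id1* (618 ± 218 RPKM), *Id3* (582 ± 255) and *Eng* (450 ± 112) followed at ranks 54, 58 and 77, and each differed from the next by less than the SD of the higher of the pair. *Tgfbr2* had 112 ± 55 RPKM. *Smad1* (56.6 ± 20.6), *Acvrl1* (50.4 ± 28.9) and *Bmpr2* (24.9 ± 19.3) lay lower, and neighbours again differed by less than that SD, as did *Bmpr2* and *Smad6*. The step from *Tgfbr2* down to *Smad1* was slightly larger than the SD of *Tgfbr2*. *Smad6* (12.5 ± 12.5 RPKM) and *Smad7* (6 ± 9.67) were the lowest, with spreads at least as large as their means.

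**Figure D1:**
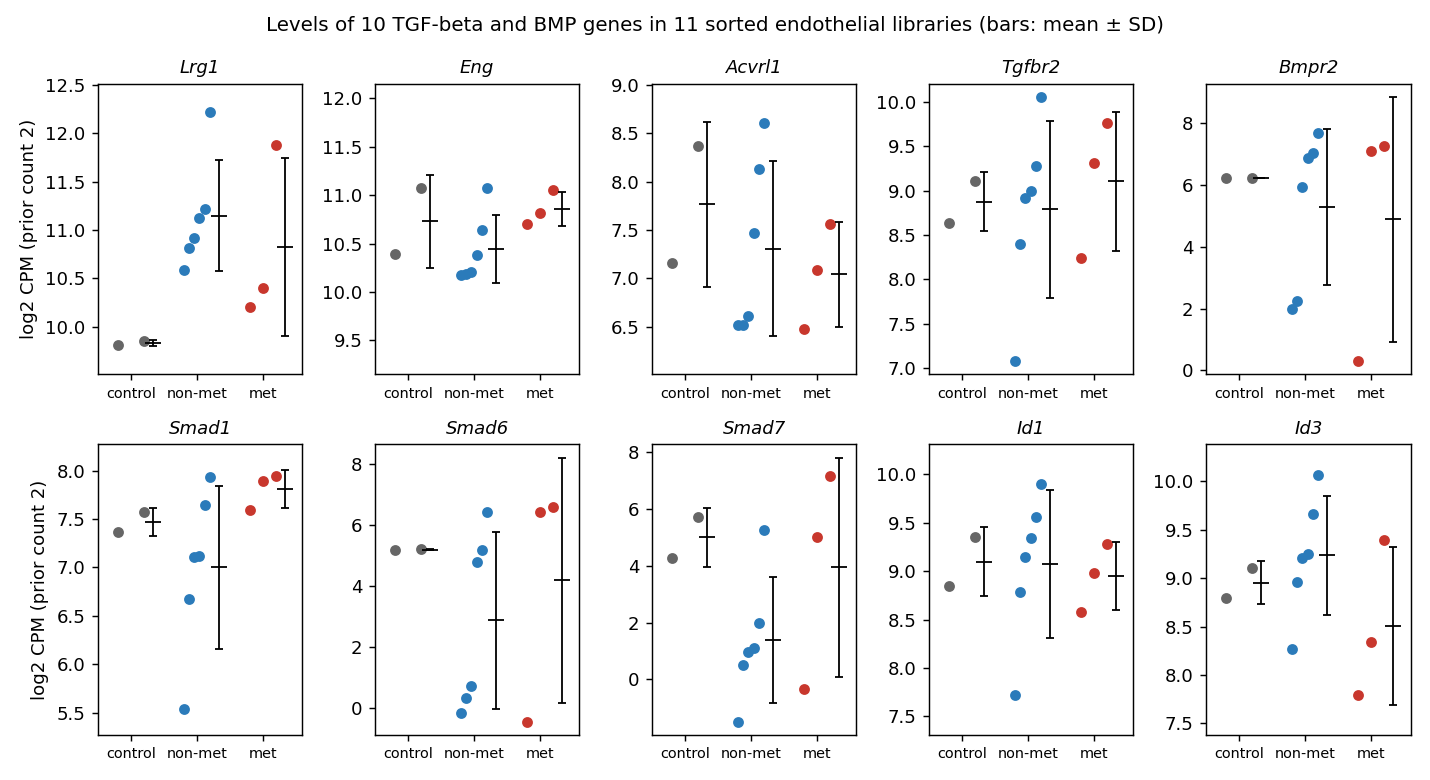
Level of each gene in every library on the log2 CPM scale (prior count 2), by group, with its own vertical range in each panel and the group mean ± SD as a bar beside the points. *Lrg1* lies above both controls in all 9 tumour-burdened libraries, while *Bmpr2*, *Smad6* and *Smad7* fall close to 0 in some libraries of the non-met and met groups.

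*Lrg1* (Entrez gene 76905, chr17:56119678-56121946 in GRCm38) was higher in every tumour-burdened library than in either control. The controls had 899 and 923 CPM. The non-met libraries ranged from 1540 CPM, with a median of 2080, to 4770, and the met libraries had 1180, 1360 and 3760 CPM. The lowest burdened library, met 1, thus stood above the higher control. Met 1 and met 2 were below the lowest non-met library, and met 3 was within the non-met range. Of the 11949 tested genes, 0.611% had all 9 burdened libraries above both controls and 2.39% had all 9 below. *Lrg1* ranked 36 by mean RPKM in the controls, 19 in non-met and 18 in met.

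The question of a response outside the metastasis is addressed by non-met against control. On the log2 CPM scale *Lrg1* was 11.15 ± 0.57 (SD, n = 6) in non-met and 9.83 ± 0.03 (n = 2) in the controls. Each of the 6 non-met libraries exceeded both controls, which held for 1.26% of tested genes. The difference of means was 1.32, with P = 0.0357 by an exact two-sided permutation test, the smallest value that 28 assignments allow. It was 1 of 30 such tests over the members. Scaled by library size only, the difference was 1.11 (P = 0.0714, exact permutation). The 6 non-met libraries come from 4 mouse pools, and with the libraries of a pool averaged, a step added after seeing the data, non-met was 11.21 ± 0.70 (SD, n = 4 pools), the difference was 1.38 and P = 0.0667, the smallest that 15 assignments allow in the exact permutation test. The fit of voomLmFit, which weights each library, put the change at 1.28 log2 units (SE 0.116, adjusted P = 1.69e-07). The fitted change stayed positive in all 19 alternative settings of the fit, from 1.20 to 1.46, and passed the threshold in 16, with adjusted P from 1.36e-13 to 0.582. DESeq2 called it (adjusted P = 0.0379), and the edgeR quasi-likelihood test (0.115) and unweighted limma-trend (0.168) did not. Control 1 carried 99.4% of the weight of the controls for this gene, and without it the fold change was 1.27 and no longer called by voomLmFit (adjusted P = 0.582). With either control left out, the remaining one is assumed to vary like the other groups. The libraries were also split into 2 library sets, proposed by an earlier look at epithelial transcripts in these data and given by no label. In the first set, which holds both controls, non-met 1 and non-met 2 were also above both controls.

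Met against control gave a less secure result for *Lrg1*. The met libraries had 10.83 ± 0.92 log2 CPM (SD, n = 3). All 3 lay above both controls, as for 8.43% of tested genes. The difference of means was 1.00 (P = 0.3 by the exact two-sided permutation test, which cannot go below 0.1 with 10 assignments). The voomLmFit fold change was 1.92 (SE 0.12, adjusted P = 6.46e-11), and met 3, the highest of the met libraries, carried 90.2% of the weight of its group. Without met 3 the fold change was 0.55 and without control 1 it was 2.04, and neither was called by voomLmFit (adjusted P = 0.532 and 0.398). With a term for library set it was 1.01 and also not called (adjusted P = 0.478). The edgeR quasi-likelihood test, DESeq2 and limma-trend gave 1.20, 1.10 and 1.00 and made no call (adjusted P = 0.807, 0.489 and 0.814).

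Met against non-met asks whether the metastasis itself goes with a further difference, and for *Lrg1* the data gave no stable direction. The difference of mean log2 CPM was -0.32 (P = 0.536, exact two-sided permutation test over 84 assignments), and the weighted voomLmFit fold change was 0.63 (SE 0.149, adjusted P = 0.061). Within mouse pools, *Lrg1* was lower in met by 0.82 and 1.82 log2 units in pools 2 and 3 (met minus non-met of -0.82 and -1.82) and higher by 1.29 in pool 4. With the mouse pool as a fixed block the voomLmFit fold change was -1.54 (adjusted P = 6.10e-30), on 4 residual degrees of freedom. In that fit met 3 carried 60.9% of the weight of the met group. Control 1 carried 54.9% of the weight of all 11 libraries, but as a pool of its own it does not enter this difference. Without the block, leaving out met 3 gave -0.73 (voomLmFit adjusted P = 0.653). With RLE scaling, no filter or no sample weights the fold change was 0.55, 0.74 and 0.71 and was called (voomLmFit adjusted P = 0.0472, 2.43e-04 and 3.80e-04). Without control 1, control 2, non-met 3 or met 2 it was 0.78, 0.73, 0.72 and 0.73 and was called by voomLmFit (adjusted P = 2.74e-09, 1.09e-04, 0.0308 and 0.00421). Among the 7 libraries of the second library set, where all met libraries lie, met and non-met also overlapped.

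Because *Lrg1* is also a product of the granulocyte lineage, its level was set beside 17 granulocyte genes. They summed to 174 and 359 CPM in the controls, 403 to 5310 CPM in non-met and 95.5 to 207 CPM in met. Of the 17 genes, 6 had more than 3 reads in some met library, 15 in non-met and 10 in the controls. The highest *Lrg1* level, in non-met 3, went with the lowest granulocyte sum of the non-met group (403 CPM), and met 3 had 26.3 times more *Lrg1* than all 17 granulocyte genes together. In non-met 1, 5 and 6 the ratio was 0.463, 0.7 and 0.364. Across the 11 libraries, which differ in depth and share pools, the Pearson correlation of *Lrg1* with the granulocyte sum on the log2 scale was 0.208. For the 6 T and NK cell genes it was 0.792. They summed to 88.7 CPM in non-met 3, 53 in non-met 5 and 22.6 in met 3, the 3 libraries highest in *Lrg1*, to 1.81 in non-met 4 and to 0 in the other 7, and *Cd3d*, *Gzma* and *Trbc2* had no read in any library. The 10 monocyte genes summed to 15.9 to 503 CPM in non-met, 47.6 to 51.6 in met and 40.3 and 69.9 in the controls (r = -0.0167), with no read of *Ccr2*, *C1qa*, *C1qb* or *C1qc*. The sort had gated out cells stained for CD45 or Ter-119, markers of blood cells and red cell precursors. The part of granulocyte, T and NK cell or monocyte RNA in the *Lrg1* level was not tested.

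**Figure D2:**
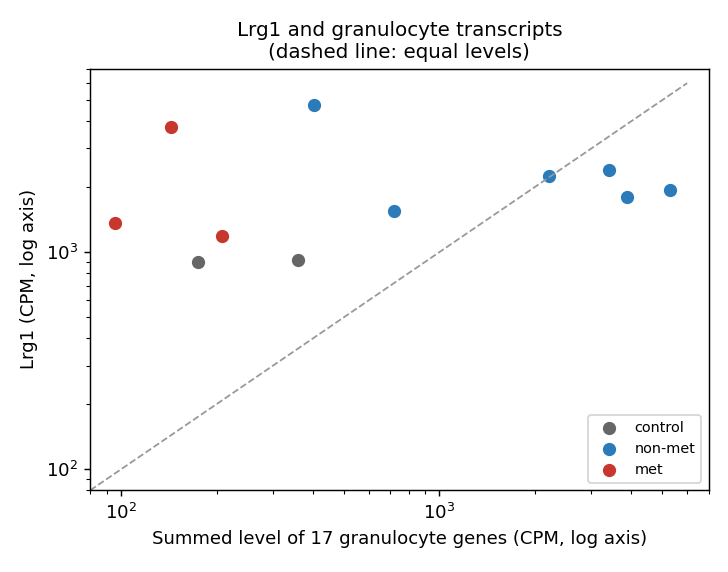
*Lrg1* against the summed level of 17 granulocyte genes, both in CPM on log axes, with 1 point for each library coloured by group. The met and control points lie well above the line of equal levels, while non-met 1, 5 and 6 lie below it.

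The genes whose log2 CPM followed *Lrg1* most closely over the 11 libraries, among 9523 with a mean of at least 10 CPM, were *Lgmn* (Pearson r = 0.888), *Ehd3* (0.884), *Igfbp2* (0.884), *H2-T22* (0.88) and *Adamts5* (0.876). *Lgmn* encodes the lysosomal protease legumain and *Igfbp2* an IGF-binding protein. The correlation of *Lrg1* was 0.555 with *Id3*, 0.228 with *Id1*, 0.146 with *Eng* and 0.046 with *Acvrl1*. These values rest on 11 libraries that share pools and differ in depth.

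The sequence ahead of *Lrg1* is shown because it is the member with the clearest difference between burdened and control marrow. It is the run of 250 bases just before the annotated start (RefSeq, GRCm38.p6, chr17:56121947-56122196, minus strand), with 55.2% G and C, written 5′ to 3′. It held no GTCTAGAC (the palindromic SMAD-binding element), GGCGCC (a GC-rich element bound by SMAD1 and SMAD5) or TTCNNNGAA (a STAT element), so no base is in capitals.
Lrg1 upstream: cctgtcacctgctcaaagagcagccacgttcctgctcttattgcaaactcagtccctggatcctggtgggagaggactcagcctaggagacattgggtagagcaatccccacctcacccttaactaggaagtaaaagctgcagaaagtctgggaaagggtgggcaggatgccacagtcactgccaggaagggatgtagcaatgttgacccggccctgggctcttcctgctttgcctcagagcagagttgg

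*Eng* (Entrez gene 13805, chr2:32646595-32682669) encodes endoglin, the co-receptor that LRG1 binds. It was abundant in all libraries and varied the least of the members, with an SD of 0.36 log2 units over the 11 libraries against a median of 2.63 over all tested genes. The met libraries had 1670, 1810 and 2120 CPM, the non-met libraries 1160 to 2140 with a median of 1260, and the controls 2140 and 1340. Met lay in the upper range of non-met, and the 3 groups overlapped. The gene overlaps *Fpgs* and *Mir1954*, and the strand setting of the counting is not given in the sources used here, so that reads of these genes may not be separable.

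For *Eng* the voomLmFit fold change was 0.77 in met against non-met (SE 0.15, adjusted P = 0.0118) and -0.80 in non-met against control (SE 0.144, adjusted P = 0.00603). Both met the threshold, and met against control did not (-0.03, adjusted P = 0.789). The unweighted differences were 0.41 (P = 0.107) and -0.28 (P = 0.464) by exact two-sided permutation tests, with 0.13 (P = 0.8) for met against control. Met 3 held 92.3% of the weight of the met group and control 1 held 99.9% of the weight of the controls. The edgeR quasi-likelihood test, DESeq2 and limma-trend called *Eng* in no comparison, with adjusted P of at least 0.911. With the mouse pool as a fixed block, met against non-met was -0.03 (adjusted P = 1). That call was also lost without non-met 1 (0.72, adjusted P = 0.0562), non-met 2 (0.69, 0.415), non-met 5 (0.74, 0.124), met 1 (0.77, 0.058) or met 3 (0.55, 0.571), and with a term for library set (0.21, 0.972). The lower level in non-met than in control was lost without non-met 2 (-0.69, adjusted P = 0.155) or control 1 (-0.14, 0.622), or with a term for library set (-0.88, 0.112). Without control 1 the fold change of met against control also moved from -0.03 to 0.71 (voomLmFit adjusted P = 0.00186), a value that rests on control 2 alone. In the library set with the controls, the non-met libraries had 1170 and 1160 CPM, below both controls, and in the other set met and non-met overlapped.

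*Acvrl1* (Entrez gene 11482, chr15:101128522-101145336) encodes ALK1, the type I receptor of the SMAD1 and SMAD5 branch. It had 329 and 143 CPM in the controls, 91.5 to 389 with a median of 137 in non-met, and 89, 188 and 136 in met. Met and non-met had close medians (136 and 137 CPM), and all groups overlapped. The difference of mean log2 CPM was -0.27 for met against non-met (P = 0.643), -0.72 for met against control (P = 0.4) and -0.45 for non-met against control (P = 0.607), all by exact two-sided permutation tests.

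*Tgfbr2* (Entrez gene 21813, chr9:116087695-116175363), the type II receptor for TGF-beta itself, had 552 and 399 CPM in the controls, 135 to 1070 with a median of 498 in non-met, and 301, 633 and 875 in met. Both ends of its range were non-met libraries, the lowest being non-met 5 and the highest non-met 3. The group means differed by 0.32, 0.23 and -0.09 log2 units in the order used above (exact permutation P = 0.643, 0.8 and 0.857).

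*Bmpr2* (Entrez gene 12168, chr1:59764279-59878081) is the type II receptor for BMPs. It had 74.1 and 74.7 CPM in the controls, 3.62 to 207 with a median of 89 in non-met, and 0.881, 153 and 136 in met. Rather than shifting between groups it split within them, since non-met 4 and 6 and met 1 held 2, 5 and 2 reads while the other non-met and met libraries held 245 to 1186. The differences of mean log2 CPM were -0.41, -1.34 and -0.93 (exact permutation P = 0.75, 1 and 0.857).

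*Smad1* (Entrez gene 17125, chr8:79338395-79399428), the receptor SMAD of the BMP branch, was read in every library. It had 166 and 189 CPM in the controls, 46.1 to 243 with a median of 138 in non-met, and 247, 192 and 237 in met. The 3 met libraries were above both controls, met 2 only by a small margin, and overlapped with non-met. As stated for *Lrg1*, 8.43% of tested genes had this order against the controls. The differences were 0.80 for met against non-met (P = 0.167), 0.34 for met against control (P = 0.2, where 0.1 is the smallest possible) and -0.47 for non-met against control (P = 0.536), by exact two-sided permutation tests. Within the mouse pools *Smad1* was higher in met in 3 of 3, by 0.65, 0.46 and 0.78 log2 units, or 0.63 ± 0.16 (SD, n = 3), and voomLmFit did not call it (0.73, SE 0.569, adjusted P = 0.796). With the non-met libraries of a pool averaged, the added step used for *Lrg1*, the difference was 0.78, with P = 0.0286 by the exact permutation test, the smallest that 35 assignments allow, although the same mice stand on both sides of it. This was 1 of 30 tests of that kind. All met pools above all non-met pools was found in 3.66% of tested genes and all below in 1.73%. The other 9 members overlapped in that comparison, with exact permutation P of 0.171 or more.

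The inhibitory SMADs were the least evenly detected members. *Smad6* (Entrez gene 17130, chr9:63953076-64022085) had 36.1 and 36.6 CPM in the controls, 0.53 to 86.8 with a median of 14.3 in non-met, and 96.9, 0.379 and 86.7 in met. In reads, met 1 and met 3 held 220 and 756 and met 2 held 2, although met 2 was the deeper of met 1 and met 2. Non-met 5 and 6 held 1 read each. The differences of mean log2 CPM were 1.32, -1.0 and -2.31 (exact permutation P = 0.619, 1 and 0.321).

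*Smad7* (Entrez gene 17131, chr18:75367365-75395935) had 52.5 and 18.9 CPM in the controls, 0 to 38 with a median of 1.69 in non-met, and 0.44, 144 and 31.5 in met. Non-met 1, with 6702201 counts, held no read of it, which at 3 reads allows a level of up to 0.541 CPM, counting error only. Met 1 held 1 read and met 2 held 759, the reverse of their order for *Smad6*. Non-met 3 was the one non-met library above 11 reads, with 122. The differences were 2.56, -1.05 and -3.61 (exact permutation P = 0.286, 0.9 and 0.107).

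*Bmpr2* had 3 reads or fewer in 2 of the 11 libraries, *Smad6* in 3 and *Smad7* in 5. Their SDs over the libraries were 2.56, 2.89 and 2.85 log2 units, near the median of 2.63 over all tested genes. The other 7 members had more than 3 reads in every library and SDs of 0.36 to 0.81. Losses were not confined to shallow libraries. Depth, cell number and transcript level as parts of this scatter were not tested.

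**Figure D3:**
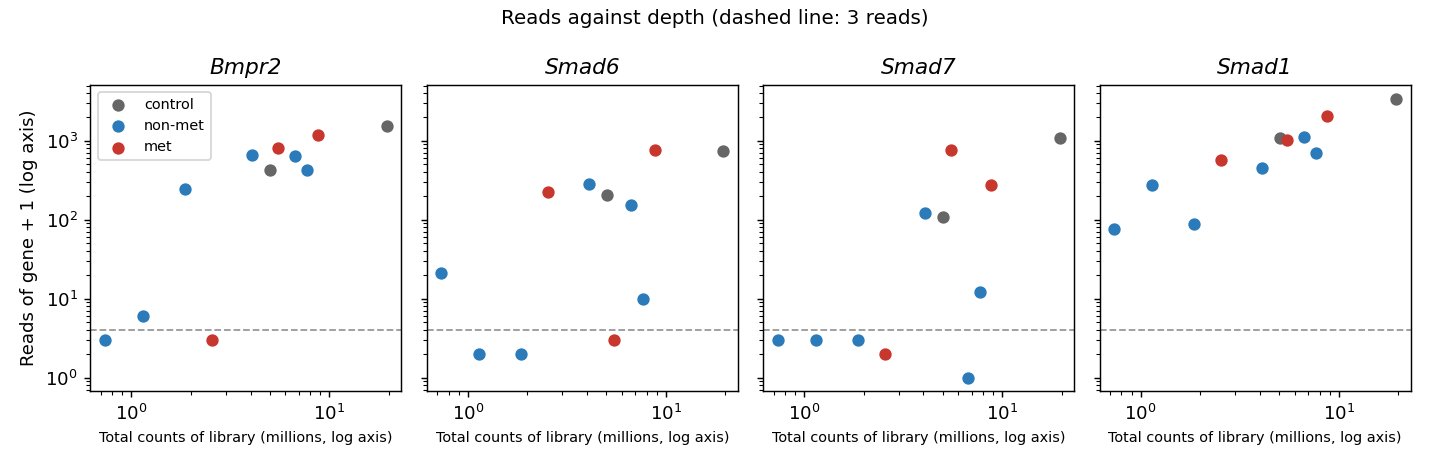
Reads of *Bmpr2*, *Smad6*, *Smad7* and, for comparison, *Smad1* (plus 1) against the total counts of each library, both on log axes, coloured by group. *Smad1* has 76 reads in the shallowest library and 3388 in the deepest, but does not follow depth throughout (87 in non-met 5, 274 in the shallower non-met 6). *Smad6* and *Smad7* have 2 reads or fewer in met libraries of 5479655 and 2547520 counts.

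The promoters of 7 of the 10 members were in the RefSeq table (GRCm38.p6, from 250 bases before to 50 after the start) and were searched on both strands for the same 3 motifs. GTCTAGAC was found in *Smad6* alone, beginning 4 bases before the start that this table uses and running across it, and in 0.211% of 27025 promoters of this length. That start of *Smad6* lies inside the gene span given above, whose end is further upstream. GGCGCC was found in *Bmpr2* alone, 105 bases before the start, and in 12% of promoters. TTCNNNGAA was in none of the 7 and in 8.47% of promoters. The 3 motifs share no full match with each other. Both windows are shown because they are the SMAD-type letters found among the members, with the motif in capitals, and a match describes the letters only. *Smad6* is on the minus strand at chr9:64022045-64022074 and *Bmpr2* on the plus strand at chr1:59764162-59764191.
Smad6: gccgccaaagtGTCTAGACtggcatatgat
Bmpr2: ctccggcggccgGGCGCCgctgcctgcccc

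*Id1* and *Id3* encode inhibitors of helix-loop-helix transcription factors and are direct targets of SMAD1 and SMAD5. *Id1* (Entrez gene 15901, chr2:152736251-152737410) had 653 and 460 CPM in the controls, 210 to 956 with a median of 607 in non-met, and 504, 382 and 620 in met. The groups overlapped, and their means differed by -0.13, -0.15 and -0.02 log2 units (exact permutation P = 0.798, 0.7 and 0.893). These differences were smaller than the SD of any group (0.35 in met, 0.76 in non-met and 0.36 in the controls).

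*Id3* (Entrez gene 15903, chr4:136143822-136145392) had 446 and 551 CPM in the controls, 308 to 1070 with a median of 602 in non-met, and 222, 323 and 671 in met. Met 1 and met 2 were below both controls, while met 3 was above them. The mean difference was -0.73 for met against non-met (P = 0.19), -0.45 for met against control (P = 0.5) and 0.28 for non-met against control (P = 0.571), by exact permutation. The genes most like *Id1* over the 11 libraries were *Drap1* (Pearson r = 0.919), *Trim8* (0.906), *Cttn* (0.893), *Pitpnm2* (0.889) and *Tor1aip2* (0.889). Among the members themselves, the highest correlations over the same 11 libraries were *Tgfbr2* with *Id1* (0.83), *Eng* with *Smad7* (0.743) and *Id1* with *Id3* (0.674), and the lowest was *Bmpr2* with *Smad1* (-0.326).

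Comparison within mouse pools sets each met library against the non-met marrow of the same animals. Across the 3 pools with both, *Acvrl1* was lower in met in all (-0.08, -1.04 and -1.04 log2 units) and so was *Id1* (-0.26, -1.32 and -0.28), while *Smad1* was higher in all. Of all tested genes, 10.6% were higher and 8.85% lower in met in 3 of 3 pools. *Id3* was lower in pools 2 and 3 (-1.64 and -1.73) and close to equal in pool 4 (0.14). *Lrg1*, *Tgfbr2*, *Bmpr2* and *Id3* had the same order of signs, lower in pools 2 and 3 and higher in pool 4, with -0.87, -0.75 and 0.78 for *Tgfbr2* and -3.80, -0.43 and 5.10 for *Bmpr2*. *Eng* was higher in pools 2 and 4 (0.42 and 0.41) and lower in pool 3 (-0.25). *Smad6* differed by 6.08, -6.89 and 1.25 and *Smad7* by -1.36, 1.91 and 3.00. These 3 differences per gene are given without a test.

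**Figure D4:**
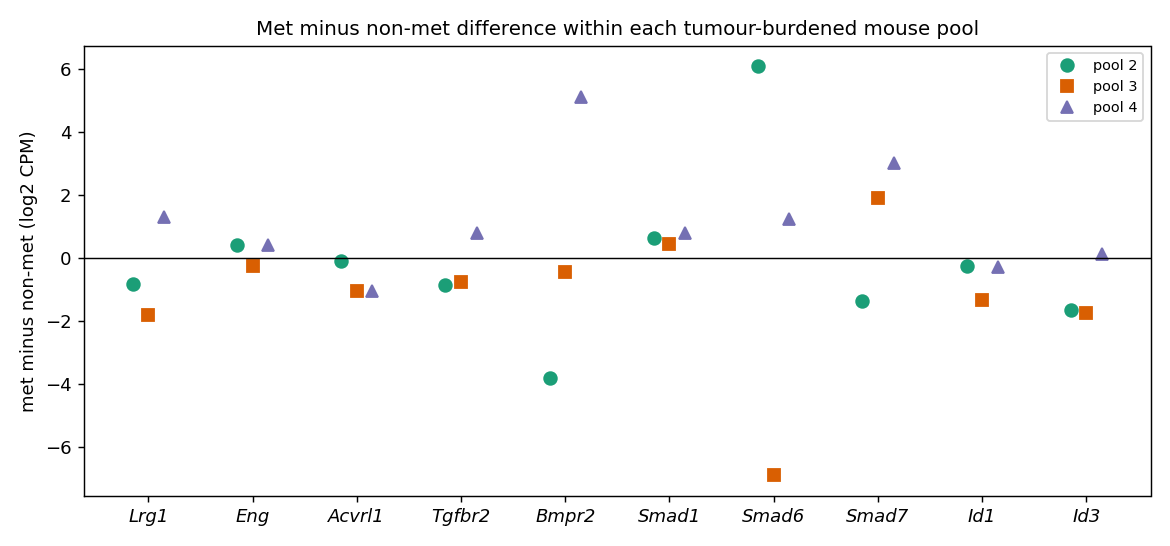
Met minus non-met difference in log2 CPM (prior count 2) for each gene within mouse pools 2, 3 and 4, where pool 2 uses the mean of its 2 non-met libraries. *Smad1* lies above 0 in all 3 pools and *Acvrl1* and *Id1* below, while *Bmpr2* and *Smad6* spread over several log2 units in both directions.

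Over the whole set, voomLmFit called 1 member in met against non-met (*Eng*, higher), 1 in met against control (*Lrg1*, higher) and 2 in non-met against control (*Lrg1* higher, *Eng* lower). The same fit called 0.418%, 1.2% and 0.636% of the 11949 tested genes. By direction, it called 0.276% of them higher and 0.142% lower in met against non-met, 0.686% and 0.511% in met against control, and 0.184% and 0.452% in non-met against control. The 3 comparisons share libraries, so the calls of *Eng* and of *Lrg1* are not separate observations. The median fitted log2 fold change of the 10 members was 0.58, -0.15 and -0.54, beside 0.08, -0.09 and -0.33 over all tested genes. The median unweighted difference was 0.09, -0.30 and -0.37 for the members and 0.26, -0.35 and -0.79 for all tested genes. The other 8 members were called by voomLmFit in no comparison. At an unadjusted P under 0.05 there were 2, 1 and 3 members, beside 7.24%, 14.1% and 17% of all tested genes. The edgeR quasi-likelihood test called 0 members, beside 0.142%, 0.0837% and 0.117% of all genes in the 3 comparisons, and limma-trend called 0, beside 0.0167%, 0.0753% and 0.067%. DESeq2 called 0, 0 and 1 (*Lrg1* in non-met against control), beside 3.23%, 2.26% and 2.68% of the genes it tested. Without regard to any fit, no member had all met libraries above (1.54% of tested genes) or below (0.444%) all non-met libraries. Against the controls, 2 members had all met libraries above (*Lrg1* and *Smad1*) and 0 below, beside 8.43% and 12.3% of tested genes, and 1 member had all non-met libraries above (*Lrg1*) and 0 below, beside 1.26% and 5.03%.

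Of 70 further genes of the pathway, 54 were tested. They comprised 10 of 16 genes listed as ligands (with the protease gene *Bmp1*), 9 of 12 receptors and 4 of 5 SMADs. They also comprised 7 of 7 genes of ligand latency, 13 of 17 inhibitors and 11 of 13 targets. Of the 54, none was called by voomLmFit in met against non-met. At an unadjusted P under 0.05 there were 3, 7 and 19 of the 54 in the 3 comparisons, beside 7.24%, 14.1% and 17% of all tested genes. In met against non-met the edgeR quasi-likelihood test and limma-trend also called 0, beside 0.142% and 0.0167% of all tested genes. DESeq2 called 1, the BMP antagonist *Chrdl1*, beside 3.23% of the genes it tested. In met against control 1 was called lower (*Bmp4*), and in non-met against control 2 were called lower (*Bmp4* and *Tgfb3*), with none higher, beside 0.511% and 0.452% of all tested genes called lower. The fitted value was higher for 33, 22 and 15 of the 54 genes in the 3 comparisons, with fitted medians of 0.34, -0.47 and -1.10 and unweighted medians of 0.70, -0.61 and -1.21, beside the values for all tested genes above.

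*Bmp4*, a BMP ligand, had 72.4 and 83.9 CPM in the controls. It had a median of 0 CPM in non-met, with 1.26 at most, and 0, 0 and 11.4 CPM from the lowest to the highest met library. Both controls were above all burdened libraries. It was called by voomLmFit with adjusted P of 0.00139 in non-met and 0.0411 in met against control, whereas limma-trend gave 0.197 and 0.744. The call in non-met held with each library left out. The call in met held in 2 of 11 such fits, without control 2 or non-met 4, and was lost in the other 9 (adjusted P of 0.0524 to 0.19). The library-set term ended both (0.237 and 0.547). *Tgfb3*, a TGF-beta ligand, had 22.6 and 58.7 CPM in the controls, 0 to 0.933 CPM in non-met, where all 6 libraries had 3 reads or fewer, and up to 13.5 CPM in met (voomLmFit adjusted P = 0.0379 for non-met against control). That call was lost without either control or any 1 non-met library (0.0622 to 0.0903, 8 fits) and with the set term (0.199), and limma-trend gave 0.701. The summed stromal markers given above were also higher in both controls than in any burdened library, and their part in these 2 ligands was not tested. No fold is given for either, since non-met libraries were at or near the counting floor.

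The most abundant gene of each of the other lists did not pass the adjusted threshold in voomLmFit. For ligands this was *Tgfb1* (128 ± 50.3 RPKM, SD, n = 11), which had 197 to 354 CPM in met, 95.4 to 471 in non-met and 238 to 329 in the controls. For receptors it was the co-receptor *Tgfbr3* (44.5 ± 28.4 RPKM) and for SMADs *Smad5* (60.3 ± 38.7), the partner of *Smad1*, at 186 to 322 CPM in met, 338 to 1190 in non-met and 184 to 491 in controls. The latency gene was *Nrros* (56.4 ± 39.9 RPKM), the inhibitor *Mgp* (190 ± 139), which encodes matrix Gla protein, and the target *Hes1* (260 ± 101), a transcriptional repressor better known downstream of Notch. *Smad5* lay lower in all 3 met libraries than in any non-met library, as did 0.444% of all tested genes, with a voomLmFit fold change of -0.98 (SE 0.439, adjusted P = 0.646).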

How the data were processed

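RNA sequencing (SMART-Seq v4 low-input libraries) of 11 libraries was analysed from deposited raw counts of reads per gene. Per the paper's methods and the submitters' processing notes, the authors used Rsubread for alignment to mm10, and featureCounts assigned the reads to Entrez genes. The strand setting is not given in the sources used here. Groups and mouse pools came from the labels. The series table was equal to the 11 tables of single libraries. Symbols and coordinates came from RefSeq GRCm38.p6 (the build of mm10) for 25275 of 27179 rows and from GENCODE for 18 more. Left out were 1886 unnamed rows, 1794 predicted genes and 35 rows of ribosomal RNA (1.94% to 15.7% of the counts of a library), and 23464 rows remained. filterByExpr (minimum count 10, minimum total 15) kept 11949 genes.

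The main fit was voomLmFit with sample weights (0.43 to 1.96) in edgeR 4.0.16, with TMM scaling, 1 model of 3 groups and no covariate, moderated by empirical Bayes (limma 3.58.1), with Benjamini-Hochberg adjustment over all tested genes, with a threshold of 0.05 (R 4.3.3). CPM and RPKM were computed from the counts, and log2 CPM used a prior count of 2. Single values were compared by exact two-sided permutation of libraries. P values measure the spread between libraries, and counting limits cover counting error only. As alternatives, DESeq2 1.42.0, the edgeR quasi-likelihood test, unweighted limma-trend, RLE scaling, no filter, no sample weights, mouse pool as a fixed or random block, a term for 2 library sets, another prior count, library size only, and each library left out were run. Averaging the libraries of one pool and group was added after seeing the data. The first library set was the controls and non-met 1 and 2, and the second the other 7, a split proposed by an earlier look at epithelial transcripts. In these sets 9 epithelial genes summed to 1.03 to 19.5 and 11.7 to 144 CPM, so the sets overlap in that measure. Met and control libraries never occur in the same set, so that comparison has no within-set value, and its fit with the set term links them through the non-met libraries. Pools pair libraries of the same mice. Over tested genes, the deviations of same-pool met and non-met libraries from their group means correlated at -0.0339 to 0.013.

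The tests were run on simulated counts with known changes, where voomLmFit and DESeq2 also called genes that had not been changed, so calls of members are printed beside unweighted differences and weights. The members, lists and library sets were chosen with earlier results of these data known. Named genes are the 10 members, pathway genes called by voomLmFit (up to 5 in each direction) and the most abundant of each list, *Pecam1*, *Emcn*, and the 5 genes most like *Lrg1* and *Id1*. *Chrdl1*, *Ltbp2* and the marker genes named for having no read were named after their values were seen. *Bmp1* is named because it was listed as a ligand.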

Additional observations from a re-analysis of the deposited data

How the results depend on the processing

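Across the alternative fits, the member fold changes kept their sign and their side of the threshold in 162, 158 and 167 cases changed sign in 22, 26 and 14, kept the sign but lost the call in 9, 6 and 9 and gained one in 7, 0 and 0, in the order met against non-met, met against control and non-met against control. The *Lrg1* fold change against control kept its sign in all 19 fits, both in non-met and in met, and so did *Smad1* in all 3 comparisons. Counts follow the same order. All genes called numbered 50, 143 and 76 by voomLmFit, 17, 10 and 14 by the edgeR quasi-likelihood test, 326, 228 and 267 by DESeq2, 2, 9 and 8 by limma-trend, 79, 429 and 184 with no filter, and 9, 4 and 20 when the fit had a term for library set. Without sample weights they were 274 and 140 in the comparisons with control. Members called numbered 0, 0 and 0 by the quasi-likelihood test and limma-trend, 0, 0 and 1 by DESeq2, and 0, 0 and 1 with the set term. In met against non-met there were 2 (*Lrg1* and *Eng*) with RLE scaling, no filter or no sample weights, beside 45, 79 and 63 of all genes. Other pathway genes called were 1 by DESeq2 in met against non-met (*Chrdl1*), 1 in met against control (also *Chrdl1*, where voomLmFit called *Bmp4*) and 1 in non-met against control (*Ltbp2*). In met against control they were 0 by the quasi-likelihood test, limma-trend and the set term, 4 with no filter and 3 without sample weights, and in non-met against control 0 by the first 3 of these.

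With each library left out in turn, all genes called ranged from 16 (without met 3) to 87 (without control 1), from 36 (without met 3) to 293 (without control 2) and from 32 (without non-met 5) to 228 (without control 2). Members called ranged from 0 to 2, 0 to 1 and 0 to 2, and other pathway genes from 0 to 3 in met against control and 1 to 4 in non-met against control.

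With the mouse pool as a fixed replicate block, 30 genes were called in met against non-met, and the fold change was -1.54 for *Lrg1*, -0.03 for *Eng*, -0.60 for *Tgfbr2* and -0.07 for *Bmpr2*. The signs of these genes differed from the main fit, and only *Lrg1* and *Eng* changed their call. The sign held for the other members. They had -0.96 for *Acvrl1*, 0.74 for *Smad1*, 0.72 for *Smad6*, 1.48 for *Smad7*, -0.88 for *Id1* and -1.29 for *Id3*.

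Signs that changed otherwise were as follows. In met against non-met, *Lrg1* was -0.22 by the quasi-likelihood test, -0.36 by DESeq2, -0.32 by limma-trend and -0.20 with the set term, and *Bmpr2* was -0.41 by limma-trend and -0.05 without sample weights. In met against control, the quasi-likelihood test and DESeq2 gave 0.10 and 0.03 for *Eng*, 0.38 and 0.26 for *Bmpr2*, 0.75 and 0.68 for *Smad6*, 0.71 and 0.65 for *Smad7*, and -0.30 and -0.41 for *Id3*. *Eng* was 0.13 and *Id3* -0.45 by limma-trend, *Eng* was 0.08 with no filter, and *Bmpr2* was 1.93 and *Id3* -0.44 with the set term. Scaled by library size only, the unweighted *Eng* difference was -0.05. With the libraries of a pool averaged, an alternative added after seeing the data, the unweighted non-met against control difference was 0.10 for *Tgfbr2* and 0.14 for *Id1*. In non-met against control, *Tgfbr2* was 0.15, 0.18 and 0.08 by the quasi-likelihood test, DESeq2 and RLE scaling, *Bmpr2* was 0.23, 0.24 and 0.19 by the first 2 and the set term, and *Id1* was 0.10 and 0.16 by the first 2.

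With libraries left out, the met against non-met fold ranged from -0.73 to 0.78 for *Lrg1*, -0.37 to 0.22 for *Acvrl1*, -0.06 to 0.75 for *Tgfbr2*, -2.41 to 2.21 for *Bmpr2*, -0.74 to 3.45 for *Smad6*, -0.31 to 4.54 for *Smad7* and -0.47 to 0.05 for *Id1*. In met against control it ranged from -0.26 to 0.71 for *Eng*, -1.14 to 0.05 for *Acvrl1*, -0.12 to 0.95 for *Tgfbr2*, -3.62 to 0.97 for *Bmpr2*, -2.90 to 1.30 for *Smad6*, -3.84 to 0.99 for *Smad7*, -0.60 to 0.24 for *Id1* and -0.69 to 0.20 for *Id3*. In non-met against control it ranged from -1.10 to 0.10 for *Acvrl1*, -0.26 to 0.36 for *Tgfbr2* and -0.26 to 0.33 for *Id1*. The cause of these shifts was not tested. With 2 controls, the smallest exact permutation P against met was 0.1, and 3 reads stood for 0.147 to 5.43 CPM by library, which limits what can be said of *Bmpr2*, *Smad6* and *Smad7*.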
